A study of Mus musculus with 16 samples.

Results

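Wild-type endothelial cells (ECs) were compared with wild-type astrocytes of the postnatal mouse cerebral cortex. The comparison used 8 of the 16 RNA-seq libraries of the study, 4 of ECs and 4 of astrocytes, taken by genotype and cell type as the labels give them and paired by animal, since each of the 4 animals (numbered 5, 9, 19 and 22) gave both cell types. All 16336 genes with enough reads to be tested were compared, out of 56980 gene identifiers in the count table. The wild types were Hmgb1flx/flx littermates without Cre, so every animal here carried loxP sites around both copies of Hmgb1, a chromatin protein gene. The mutants of the study, used below only for comparison, were Aldh1L1-Cre/ERT2;Hmgb1flx/flx mice, in which tamoxifen activates a recombinase under an astrocyte promoter. Mice were of both sexes and on a B6 background, all pups including the wild types received tamoxifen in the first postnatal days, and cells were taken at postnatal day 14. The cortex was dissociated with enzymes, myelin and CD45+ leukocytes were removed with magnetic beads, ECs were then captured by CD31, and astrocytes were captured by the surface antigen ACSA-2 from the cells that were left. The libraries are therefore enriched populations and not pure ones, and 2 genes were used to choose the cells, Pecam1, which encodes CD31, and Atp1b2, which encodes the ACSA-2 antigen.

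Brain ECs line the vessels and form the blood-brain barrier. Tight junctions seal the gaps between them, transcytosis is kept low, and transporters in their membranes choose what passes between blood and brain. Astrocytes take up glutamate, GABA and potassium released by neurons, hold glycogen, make sterols, and wrap the vessels with endfeet rich in the water channel Aqp4. During postnatal growth the cells exchange secreted signals, among them Vegfa and Wnt7 ligands from the brain side and Pdgfb from the vessel side.

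Each library held 16130383 to 20904640 counted reads, with 17261546 to 19577335 in astrocytes, and reads fell on 24698 to 26205 genes per library. Levels are given as CPM, the reads of a gene per 1000000 counted reads of that library, always in the order of animals 5, 9, 19 and 22. Fold changes are log2 values of ECs over astrocytes with their standard error (SE), from edgeR's quasi-likelihood test with the animal as a block, and the adjusted p is over all 16336 genes. The animals are separate individuals. With the block, differences in level between animals are set aside, and these p-values weigh the cell type difference against its variation from animal to animal. In bulk libraries such as these, fewer cells of a type and less RNA per cell cannot be told apart. Of all reads, 11.2% to 11.9% in astrocytes and 5.76% to 6.45% in ECs fell on the 10 top genes of the library.

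The 2 cell types differed in most of the genes they expressed. At an adjusted p under 0.05, 12582 genes (77% of those tested) were called, 6318 higher in ECs (38.7%) and 6264 higher in astrocytes (38.3%). Of these, 8019 genes (49.1%) were called and more than 2-fold different, 3650 higher in ECs (22.3% of genes tested) and 4369 higher in astrocytes (26.7%), and 11922 genes (73%) had CPM ranges that did not overlap between the 2 sets of 4 libraries. The first principal component held 92.4% of the variance and separated the cell types, and the next held 2.995% and separated animals 5 and 9 from 19 and 22 in both cell types. The genes more than 2-fold higher in ECs took 47.4% to 47.7% of the reads in the EC libraries and 7.92% to 8.61% in astrocytes. Those more than 2-fold higher in astrocytes took 48.5% to 50.5% of astrocyte reads and 6.85% to 7.65% of EC reads. Long noncoding RNA genes made up 12.7% of the astrocyte set, 9.04% of the EC set and 8.93% of all genes tested.

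The fold changes were not symmetric. More genes were over 2-fold higher in astrocytes, but the extreme differences belonged to ECs. A log2 fold change above 6 was reached by 382 genes on the EC side and by 22 on the astrocyte side, and one above 8 by 150 genes against 1. No gene was called with a log2 value below -9, while 39 were above 10. The median over all genes tested was 0.02. Among the 779 genes more than 2-fold higher in astrocytes with at least 100 CPM there, the lowest level in ECs was 1.77% of the astrocyte level. That level bounds the fold changes of these genes, and its part in the asymmetry was not tested.

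**Figure D1:**
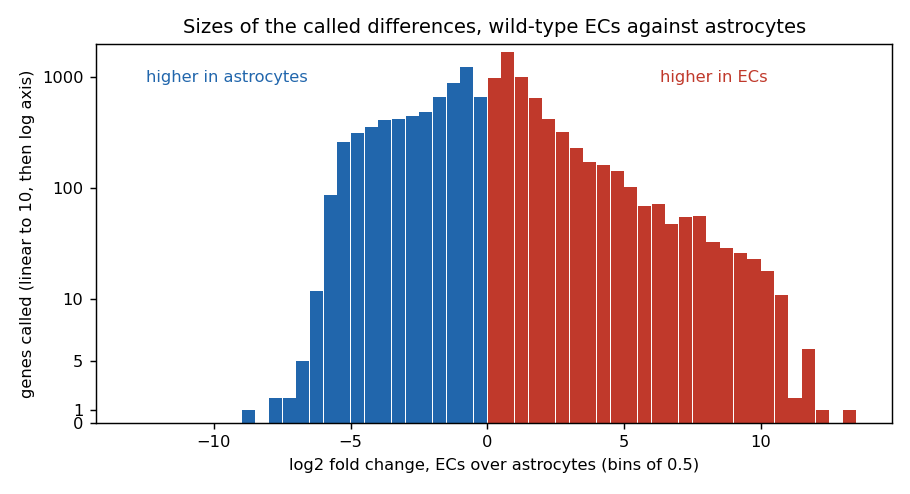
Histogram of the log2 fold change (x axis, ECs over astrocytes) of the called genes, with the number of genes on the y axis (linear to 10, then log) and colours for called genes higher in each cell type. The EC side carries the long tail, with 382 called genes above 6 against 22 called genes below -6.

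The defining markers of each cell type followed the labels. All 12 endothelial markers on the list were higher in ECs (median log2 fold change 9.59), and all 12 astrocyte markers were higher in astrocytes, with a median of -5.21. Pecam1, the CD31 gene, read 1353, 1372, 1354 and 1320.3 CPM in ECs and 0.904, 1.22, 0.511 and 0.817 CPM in astrocytes. Claudin 5 (Cldn5, chr16:18595597-18597012 of GRCm39), the main tight junction claudin of brain vessels, read 3681, 3958, 3478 and 3460.4 CPM in ECs and 1.65, 2.43, 0.511 and 1.89 CPM in astrocytes, a log2 fold change of 11.12 ± 0.37 (adjusted p = 7.3e-07). Every EC library lay more than 3 orders of magnitude above its astrocyte partner. Aqp4 read 2719, 2407, 2198 and 2004 CPM in astrocytes and 62.3, 44.2, 81.6 and 56.5 CPM in ECs (-5.34 ± 0.21, adjusted p = 1.3e-06), and Aldh1l1, the enzyme gene whose promoter drives the Cre of the mutants, 483, 473, 626 and 719.6 CPM in astrocytes and 12.5, 9.81, 23.8 and 18.98 CPM in ECs (-5.26 ± 0.17, adjusted p = 6.7e-07). Both were far from 0 in every EC library.

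The markers differed in how much of their level was left in the other cell type. Over the 12 astrocyte markers, the level in the ECs of an animal was, as a median, 2.77%, 2.12%, 4.31% and 2.99% of that in its own astrocytes. Single markers in single animals ran from 1.61% (Fgfr3) to 19.5% (Sox9). Over the 12 endothelial markers, the level in astrocytes was 0.141%, 0.184%, 0.0886% and 0.0956% of that in the ECs, with single markers from 0.00925% (Ly6c1) to 1.30% (Itm2a). Over all genes more than 2-fold different and of at least 100 CPM, which include markers of these lists, the lowest levels differed in the same direction. Among the 779 genes more than 2-fold higher in astrocytes with at least 100 CPM there, the lowest level in ECs was 1.77% of the astrocyte level, no gene was below 1%, and 180 lay between 2% and 4%. Among the 986 such genes of ECs, the lowest was 0.0249% and 118 were below 1%. The medians went the other way, 12.99% for the astrocyte genes and 19.99% for the EC genes. Whether the astrocyte transcripts in the EC libraries came from captured astrocytes, free RNA or the ECs themselves was not tested.

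**Figure D2:**
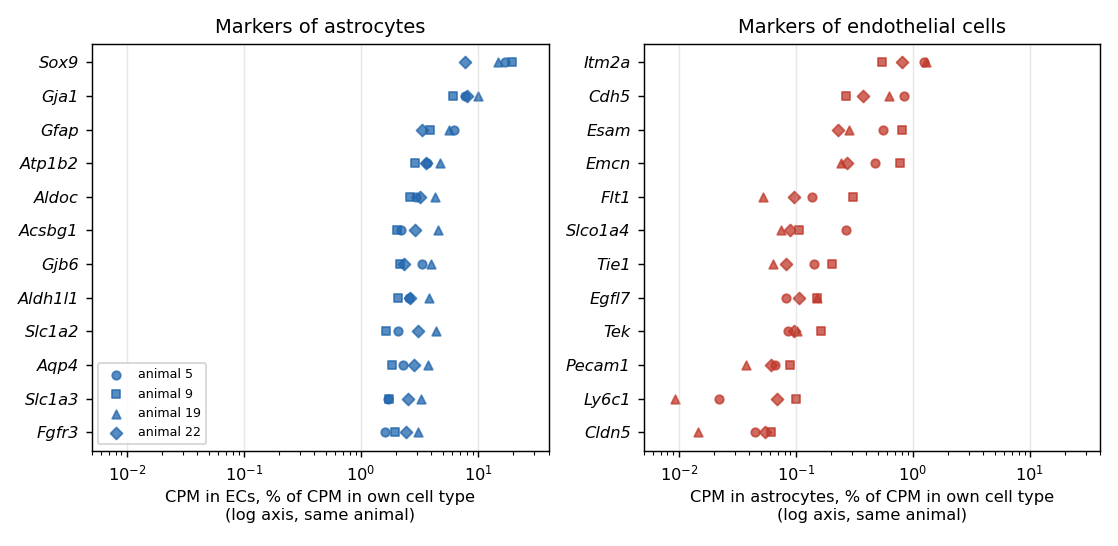
Level of each marker in the other cell type as a percent of its level in its own cell type (log axis), for each animal. Astrocyte markers have medians per animal of 2.12% to 4.31% in ECs, with Sox9 reaching 19.5%, and endothelial markers medians of 0.0886% to 0.184% in astrocytes, with points from 0.00925% to 1.30%.

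The largest differences among abundant protein-coding genes were led on the EC side by Gimap4, Srarp, Fam124b, Dipk2b and Ctla2a. Gimap4 and Gimap5 encode GTPases best known from lymphocytes. Gimap4 read 36.98, 29.9, 56.2 and 103 CPM in ECs and had no read in any astrocyte library, so that it was at least 1358-fold higher against a floor of 3 reads over the 4 libraries. By the same floor, Fam124b was at least 659-fold higher, Gkn3 at least 586-fold, Gimap5 at least 565-fold and Ces2b, a carboxylesterase gene, at least 524-fold. Srarp and Dipk2b had 1 read each in all astrocyte libraries, for a ratio of 6472 (95% counting interval 1161 to 255664) and 5471 (982 to 216132). Gimap4 was highest in the ECs of animal 22, the library that also held the most macrophage and microglia markers, and the part of leukocytes in its level was not tested. Ctla2a, which encodes a cathepsin inhibitor, read 280.2, 320.4, 240.1 and 258 CPM in ECs and 0.106, 0.116, 0 and 0.0511 CPM in astrocytes (11.79 ± 0.22, adjusted p = 2.7e-07).

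On the astrocyte side the leading genes included Gdpd2, Fezf2, Megf10 and Fzd10. Gdpd2, a glycerophosphodiester phosphodiesterase gene, read 93.3, 83.8, 65.1 and 70.6 CPM in astrocytes and 1.005, 0.957, 1.74 and 1.14 CPM in ECs (-6.09 ± 0.22, adjusted p = 9.3e-07). Megf10, a phagocytic receptor with which astrocytes engulf synapses, read 203, 223, 149 and 156 CPM in astrocytes and 2.77, 2.97, 3.97 and 3.21 CPM in ECs (-5.87 ± 0.20, adjusted p = 7.6e-07). Both kept reads in every EC library. Folh1, Cyp4f15, Kcnn2, Atp13a4 and Hrh1, the histamine H1 receptor, were also among the first 10, and the 10th had a log2 value of -5.75.

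Genes were also ordered by CPM per kilobase of exonic length. That length joins the exons of all annotated transcripts of a gene and can exceed that of the transcript expressed, so the order is approximate. The genes most abundant in ECs with at least a 4-fold difference were Bsg (3478 CPM per kb), Cldn5 (2574), Tmsb4x (1396), Sparc (1388) and Spock2 (1206). Basigin (Bsg) is the partner protein that brings the lactate transporter Slc16a1 to the membrane, and Slc16a1 itself, the amino acid transporter Slc7a5 and the transferrin receptor Tfrc were also among the first 10. In astrocytes the order was Apoe (3477 CPM per kb), Cpe (3388), Cst3 (2876), Sparcl1 (2150.3) and Glul (1745). These are a lipid carrier, a peptide-processing enzyme, a protease inhibitor, a synapse-directed matrix protein and glutamine synthetase. The first 10 of ECs thus held 4 genes of transport across the membrane, and the first 10 of astrocytes held the glutamate transporter Slc1a2.

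**Figure D3:**
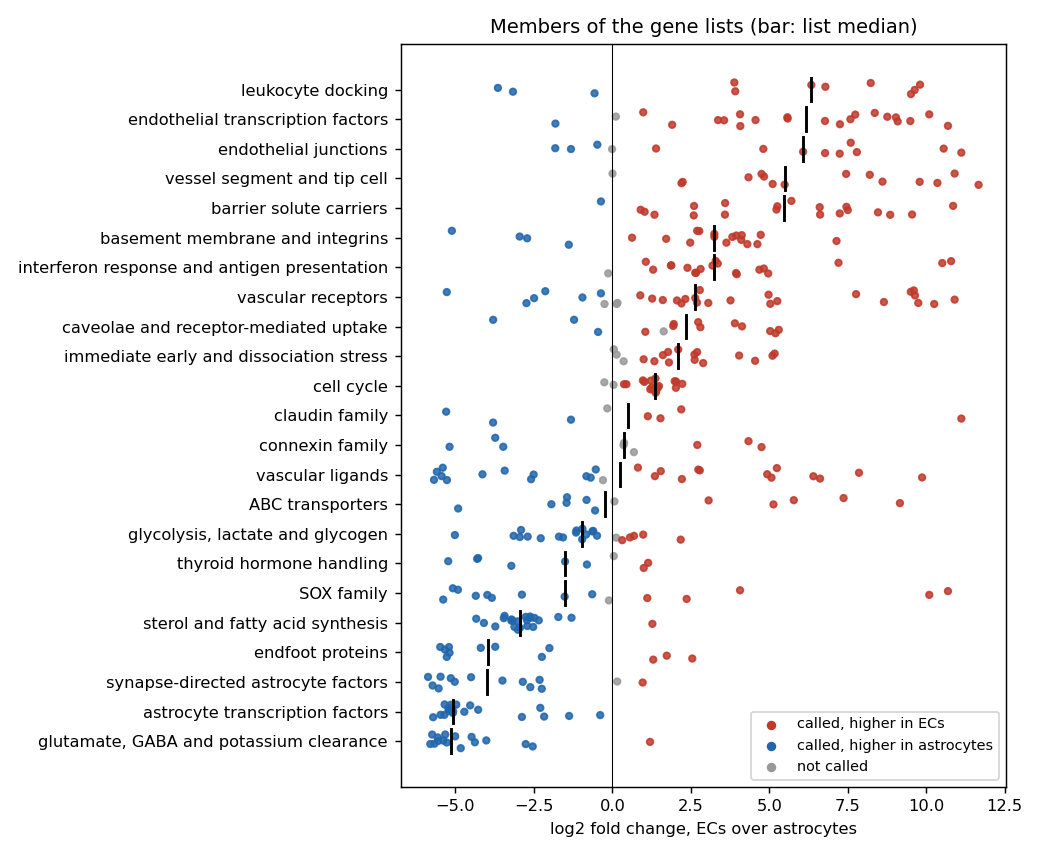
Log2 fold change (ECs over astrocytes) of each tested member of the gene lists, 1 row per list, with the list median as a bar. Astrocyte transcription factors, clearance and sterol genes lie left of 0 (medians -5.08, -5.14 and -2.95), and barrier carriers, endothelial transcription factors and leukocyte docking genes right of it (medians 5.48, 6.18 and 6.34).

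The junction genes of the barrier were higher in ECs, with exceptions. Of 13 tested members, 9 were higher in ECs and 3 in astrocytes, and the median on the log2 scale was 6.08. Counts of list members, here and in all paragraphs below, stand against 38.7% of all genes tested higher in ECs and 38.3% higher in astrocytes. Occludin (Ocln) read 273, 220.4, 253 and 239 CPM in ECs and 11.6, 11.1, 8.45 and 4.14 CPM in astrocytes (4.81 ± 0.25, adjusted p = 4.7e-06), and VE-cadherin (Cdh5), the adherens junction cadherin of vessels, 1044, 979, 1007 and 1042 CPM in ECs and 8.73, 2.61, 6.297 and 3.88 CPM in astrocytes (7.59 ± 0.33, adjusted p = 2.0e-06). The tricellular junction genes Lsr and Marveld2 were higher in ECs by 7.24 and 6.08. The scaffold Tjp1 was shared, at 738, 593, 799 and 913 CPM in ECs and 320.1, 325, 237 and 233 in astrocytes (1.39 ± 0.19). Cldn12 was lower in ECs, at 28.2, 22.5, 25.2 and 24.2 against 66.9, 67.3, 56.4 and 50.5 CPM (-1.32 ± 0.10, adjusted p = 2.5e-05). Jam2, a junctional adhesion molecule, was also higher in astrocytes (-0.48 ± 0.09), and Cgn was at or below 1.69 CPM in every library.

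Solute carriers of the barrier were endothelial with a single exception. Of 20 tested, 19 were higher in ECs, 18 of them more than 2-fold, with a median of 5.48. Slc38a5, a glutamine carrier (chrX:8123870-8146425), read 618, 612, 783 and 995 CPM in ECs and 0.213, 0.579, 0.34 and 0.409 CPM in astrocytes (10.86 ± 0.22, adjusted p = 2.8e-07). The arginine and lysine carrier Slc7a1 read 1716, 1198, 2219 and 1852 CPM in ECs and 14.05, 14.6, 18.7 and 20.8 CPM in astrocytes (6.61 ± 0.17, adjusted p = 4.0e-07), and the glucose transporter Slc2a1 1667, 2033, 1419 and 1341 CPM in ECs and 125, 147, 128 and 111 CPM in astrocytes (3.59 ± 0.12, adjusted p = 7.2e-07). Both separated every EC library from every astrocyte library. The lipid carrier Mfsd2a, which keeps transcytosis low, read 1108, 856, 1229 and 973 CPM in ECs and a clear 174, 217, 149 and 127 CPM in astrocytes (2.60 ± 0.19). The thyroid hormone carrier Slco1c1 was found in both cells and read 3401, 3138, 3351 and 3332 CPM in ECs and 1321, 1213, 1202 and 1279 CPM in astrocytes (1.34 ± 0.11). The glutamine carrier Slc38a3 was the member that went the other way, with 1003, 969.8, 1006 and 964 CPM in ECs and 1077, 1015, 1392 and 1452 CPM in astrocytes (-0.37 ± 0.13, adjusted p = 0.042). It was not called without animal 5, 19 or 22 (adjusted p = 0.068, 0.13 and 0.17).

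ABC transporters, the efflux and lipid pumps, were found on both sides. Of 12 tested, 5 were higher in ECs and 6 in astrocytes, an even split like that over all genes (38.7% and 38.3% of those tested), with a median of -0.24. The drug pumps were endothelial. Abcb1a, which encodes P-glycoprotein, read 1022, 1094, 903 and 934 CPM in ECs and 2.39, 1.101, 2.21 and 1.02 CPM in astrocytes (9.16 ± 0.29, adjusted p = 6.7e-07), and Abcg2 299.7, 339, 279 and 320.4 CPM in ECs and 5.59, 4.52, 6.01 and 5.47 CPM in astrocytes (5.78 ± 0.15, adjusted p = 4.1e-07). Abcb1b is a near copy of Abcb1a, so reads may be divided between them, and the value is uncertain. It read 1.39 to 2.79 CPM in ECs and 4.52 to 5.59 CPM in astrocytes (-1.45 ± 0.24). Among lipid pumps, Abcg1 was higher in ECs (5.13 ± 0.13) and Abcg4, of the same family, higher in astrocytes (-4.91 ± 0.14), while Abca1 read 412 to 806 CPM in ECs and 529 to 672 CPM in astrocytes and was not called (0.06 ± 0.18, adjusted p = 0.75).

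Genes of caveolae and of receptor-mediated uptake were mostly higher in ECs, 10 of 14 tested against 3 in astrocytes, with a median of 2.34. Over all genes tested the shares were 38.7% and 38.3%. Tfrc read 3779.9, 4047, 5719 and 4422 CPM in ECs and 113, 142, 125 and 145 CPM in astrocytes (5.03 ± 0.17, adjusted p = 8.7e-07). Caveolin 1 (Cav1) read 376, 494, 344 and 427 CPM in ECs and 31.6, 29.5, 17.4 and 14.9 CPM in astrocytes (4.13 ± 0.22, adjusted p = 4.6e-06), with no overlap between the groups. The lipoprotein receptors went different ways, since Lrp8, which binds reelin and Apoe, was higher in ECs (2.73 ± 0.13), and Lrp1 was higher in astrocytes (-3.80 ± 0.23). Plvap, the diaphragm protein of leaky vessels, read 27.1, 5.55, 1.36 and 0.674 CPM in ECs, high in animal 5 alone, and was not called (1.63 ± 0.93, adjusted p = 0.15), although it was without the block (2.701, adjusted p = 0.034), with limma-voom (2.39, adjusted p = 0.030) and without animal 22 (2.51, adjusted p = 0.033). The EC library of animal 5 was also the one with choroid plexus transcripts, described further on, and their part in the Plvap level was not tested.

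The lists of transcription factors of each cell type followed the cell type. Of 22 endothelial factors tested, 20 were higher in ECs and 1 in astrocytes, with a median of 6.18, and all 20 astrocyte factors were higher in astrocytes, with a median of -5.08. Among factors of the ETS family, Erg read 295, 235, 274 and 285 CPM in ECs and 0.266, 0.695, 0.284 and 0.204 CPM in astrocytes (9.49 ± 0.26, adjusted p = 4.8e-07), Fli1 159, 148, 163 and 202 CPM in ECs and 0.266, 0.348, 0.397 and 0.204 CPM in astrocytes (9.04 ± 0.17, adjusted p = 2.7e-07), and Ets1 782, 581, 905 and 920.4 CPM in ECs and 3.99, 8.17, 2.84 and 2.04 CPM in astrocytes (7.58 ± 0.48, adjusted p = 1.1e-05). All 3 were below 10 CPM in every astrocyte library. Foxq1 and Foxf2, forkhead factors of brain vessels, were higher in ECs by 8.76 and 7.25, and Lef1, a nuclear partner of beta-catenin, by 3.37. The flow-responsive factor Klf2 read 606, 748, 512 and 477 CPM in ECs and 8.46, 13.2, 16.3 and 9.603 CPM in astrocytes (5.58 ± 0.22, adjusted p = 1.4e-06). The Notch effectors did not follow: Hey1 read 69.5 to 167 CPM in ECs and 83.004 to 103 CPM in astrocytes (0.11 ± 0.16, adjusted p = 0.56), and Hey2 was higher in astrocytes (-1.82 ± 0.13).

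ETS factors bind DNA around a GGAA core, and the 250 bases upstream of the start of the canonical transcript of each gene (GENCODE, GRCm39) were searched on both strands for the letters AGGAAG. Other transcripts of a gene can start further out, and 7633 of the 16268 windows of genes tested (46.9%) overlap the annotated span of their own gene, those of Pecam1, Aldh1l1, Egfl7, Tie1, Flt1 and Slc1a3 among them. The motif was found in 41.5% of the 850 such sequences of genes more than 16-fold higher in ECs and in 32.4% of those more than 2-fold higher. It was found in 26.1% of the sequences of genes more than 2-fold higher in astrocytes, in 26.9% of those of genes not called, in 28.2% of all genes tested and in 29.1% of all annotated genes. The SOX letters AACAAT, searched the same way, stood in 9.18% of the sequences of genes more than 16-fold higher in ECs, 8.7% of those more than 16-fold higher in astrocytes and 7.03% of all genes tested. Before the outermost annotated start of each gene, an alternative chosen after seeing the data, AGGAAG stood in 37.6% of the sequences of genes more than 16-fold higher in ECs, 27.8% of those more than 16-fold higher in astrocytes and 28.7% of all genes tested. A match is a description of these letters and not a site. Of the 12 endothelial markers, 5 held AGGAAG, as did 4 of the 12 astrocyte markers. The sequences of 3 endothelial receptor and surface genes that hold the motif and of the astrocyte glutamate transporter Slc1a3, which lacks it, are shown 5′ to 3′ on the strand of the gene, with AGGAAG or its reverse complement in capitals. They lie at chr4:118347259-118347508 (minus strand), chr5:147662822-147663071 (minus strand), chr3:137046544-137046793 (plus strand) and chr15:8740277-8740526 (minus strand).
Tie1: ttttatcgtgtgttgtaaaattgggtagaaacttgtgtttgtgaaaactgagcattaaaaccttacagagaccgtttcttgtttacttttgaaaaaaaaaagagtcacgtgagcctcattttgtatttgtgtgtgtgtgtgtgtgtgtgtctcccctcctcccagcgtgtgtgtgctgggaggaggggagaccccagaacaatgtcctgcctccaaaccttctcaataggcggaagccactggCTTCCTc
Flt1: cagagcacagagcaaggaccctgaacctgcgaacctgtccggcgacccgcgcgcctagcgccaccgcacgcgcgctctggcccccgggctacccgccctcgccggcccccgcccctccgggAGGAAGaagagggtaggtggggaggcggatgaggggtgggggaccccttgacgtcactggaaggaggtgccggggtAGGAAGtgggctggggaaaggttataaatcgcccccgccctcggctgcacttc
Emcn: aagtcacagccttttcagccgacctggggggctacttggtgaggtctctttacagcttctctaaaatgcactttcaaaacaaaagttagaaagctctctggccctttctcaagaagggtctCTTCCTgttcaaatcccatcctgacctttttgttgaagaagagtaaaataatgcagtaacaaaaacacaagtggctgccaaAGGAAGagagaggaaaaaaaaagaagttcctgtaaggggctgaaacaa
Slc1a3: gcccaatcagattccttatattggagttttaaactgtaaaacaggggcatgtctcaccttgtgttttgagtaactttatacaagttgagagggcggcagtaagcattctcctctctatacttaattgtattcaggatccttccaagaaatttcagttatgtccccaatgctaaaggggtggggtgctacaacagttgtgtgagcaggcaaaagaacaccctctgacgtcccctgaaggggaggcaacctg

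Tie1, an orphan receptor of the angiopoietin pathway, held 1 match, which begins 7 bases before the start of the canonical transcript and overlaps the outermost bases of the gene as annotated, and read 1181, 1178, 1148 and 1116 CPM in ECs and 1.703, 2.38, 0.737 and 0.919 CPM in astrocytes (9.64 ± 0.30, adjusted p = 6.4e-07). Flt1, the VEGF receptor 1, held 2 matches and read 2134, 2062, 2259.5 and 2083 CPM in ECs and 2.93, 6.31, 1.19 and 1.99 CPM in astrocytes (9.51 ± 0.45, adjusted p = 3.0e-06). Emcn, the mucin endomucin of capillaries and veins, held 2 and read 257, 315, 209 and 226 CPM in ECs and 1.22, 2.43, 0.511 and 0.613 CPM in astrocytes (7.74 ± 0.26, adjusted p = 8.0e-07). Slc1a3 read 10939, 10349.5, 9873 and 10537 CPM in astrocytes and 187, 179.7, 322 and 265 CPM in ECs (-5.55 ± 0.24, adjusted p = 1.9e-06). The EC libraries of animals 19 and 22 held more of it than those of animals 5 and 9. The median over the astrocyte markers moved the same way, at 2.77%, 2.12%, 4.31% and 2.99% of the astrocyte level.

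The astrocyte factors included the progenitor factor Sox2, at 294, 269, 310.1 and 292 CPM in astrocytes and 7.37, 8.802, 12.5 and 7.72 CPM in ECs (-5.08 ± 0.15, adjusted p = 5.9e-07), and Lhx2, at 211, 224, 201 and 185 CPM in astrocytes and 5.17, 5.501, 7.13 and 5.13 CPM in ECs (-5.23 ± 0.13, adjusted p = 3.8e-07). Hes5, a Notch effector, read 57.9, 49.8, 65.5 and 53.8 CPM in astrocytes and 1.05, 1.196, 1.74 and 1.35 CPM in ECs (-5.48 ± 0.13, adjusted p = 3.4e-07). Other factors kept more of their level in ECs. Nfib read 198 to 227 CPM in astrocytes and 151 to 184 CPM in ECs (-0.39 ± 0.09, adjusted p = 0.0051), a difference that vanished with an offset for gene length and GC content (0.02, adjusted p = 0.89), and Sox9, often used as an astrocyte nuclear marker, kept 36.2, 46.8, 33.4 and 18.1 CPM in ECs against 214, 239.8, 225 and 232 CPM in astrocytes (-2.88 ± 0.23).

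Genes that clear glutamate, GABA and potassium were higher in astrocytes in 15 of 16 cases, with a median of -5.14. The glutamate transporter Slc1a2 read 19511, 16973, 13098 and 13734 CPM in astrocytes and 405, 277, 570.5 and 422 CPM in ECs (-5.33 ± 0.30, adjusted p = 6.3e-06). Among astrocytes it was higher in animals 5 and 9 than in 19 and 22. The potassium channel Kcnj10 read 1104, 1070.2, 1062 and 1047 CPM in astrocytes and 25.7, 31.2, 52.9 and 33.8 CPM in ECs (-5.01 ± 0.21, adjusted p = 1.8e-06). Glul, which turns glutamate into glutamine, kept 1224, 1202, 1265 and 1239.6 CPM in ECs against 7115, 7292, 6377 and 6773 CPM in astrocytes (-2.54 ± 0.13, adjusted p = 4.6e-06), and Glud1 differed by a like amount (-2.76 ± 0.11). Gad1, a GABA-synthesis enzyme of interneurons, was the exception, low in both but higher in ECs, with 7.13, 7.18, 5.02 and 3.21 CPM against 1.81, 2.38, 2.16 and 2.76 CPM (1.20 ± 0.31, adjusted p = 0.01).

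Endfoot genes were mostly astrocytic. Of 12 tested, 9 were higher in astrocytes and 3 in ECs, with a median of -3.96. Mlc1 and Hepacam, partner proteins at astrocyte contacts, were higher in astrocytes by -5.21 and -5.49. Dystroglycan (Dag1), the laminin receptor that anchors Aqp4, read 1103, 963, 957 and 895 CPM in astrocytes and 284, 219, 275 and 239.7 CPM in ECs (-2.01 ± 0.10, adjusted p = 3.7e-06). Dystrophin (Dmd) was higher in astrocytes (-2.25 ± 0.13) and its relative utrophin (Utrn) in ECs, at 469, 412, 419.6 and 409 CPM against 79.8, 81.6, 58.7 and 63.4 CPM (2.54 ± 0.11, adjusted p = 1.8e-06). The dystroglycan ligands agrin (Agrn) and Lamb2 were likewise higher in ECs (1.73 ± 0.12 and 1.30 ± 0.09).

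Genes of synapse-directed astrocyte factors were higher in astrocytes in 12 of 14 cases, with a median of -4.003. Gpc5, a proteoglycan, read 362, 378, 302 and 275 CPM in astrocytes and 6.22, 8.85, 8.87 and 6.95 CPM in ECs (-5.48 ± 0.16, adjusted p = 5.0e-07), and the AMPA receptor regulator Chrdl1 436, 387, 470.0 and 487 CPM in astrocytes and 5.74, 5.98, 14.3 and 11.1 CPM in ECs (-5.73 ± 0.24, adjusted p = 1.6e-06). Sparcl1 (hevin) was abundant in both, at 16066, 15243, 16017 and 17046 CPM in astrocytes and 3926, 3523, 3741 and 2957 CPM in ECs (-2.25 ± 0.17, adjusted p = 2.6e-05). The thrombospondins divided, with Thbs4 higher in astrocytes (-5.54 ± 0.10), Thbs2 higher in ECs (0.96 ± 0.17) and Thbs1 not called (0.15 ± 0.48, adjusted p = 0.78).

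Of 22 tested genes of glycolysis, lactate and glycogen, 16 were higher in astrocytes and 5 in ECs, with a median of -0.96. Isoforms of 1 enzyme often parted. Aldoc read 2781, 2915, 2691 and 2798 CPM in astrocytes and 82.05, 77.2, 115 and 89.4 CPM in ECs (-5.02 ± 0.17, adjusted p = 7.4e-07), and Aldoa 447, 482, 527 and 543 CPM in astrocytes and 404, 425, 323 and 335 CPM in ECs (-0.49 ± 0.14, adjusted p = 0.014), the latter not called without animal 19 or 22 (adjusted p = 0.055 and 0.066). Of the lactate dehydrogenase subunits, Ldhb was higher in astrocytes, with 533, 539, 701 and 703 CPM against 89.7, 59.6, 71.9 and 70.2 CPM (-3.15 ± 0.15, adjusted p = 3.1e-06), and Ldha in ECs, with 449.7, 580.2, 389 and 420.4 CPM against 212, 199.8, 225 and 249 CPM (0.98 ± 0.15, adjusted p = 0.001). Phosphofructokinase M (Pfkm) was higher in astrocytes (-2.91 ± 0.10) and the liver isoform Pfkl slightly higher in ECs (0.56 ± 0.09). The lactate and ketone carrier Slc16a1 was endothelial, at 4927, 4574, 4283 and 4344 CPM against 119.9, 119, 113 and 103 CPM (5.26 ± 0.13, adjusted p = 4.0e-07). The glycogen genes Pygb, Pygm and Gys1 were higher in astrocytes (-2.95 ± 0.12, -2.70 ± 0.13 and -2.28 ± 0.12).

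Genes of sterol and fatty acid synthesis were higher in astrocytes with a single exception. Of 23 tested, 22 were higher in astrocytes, all of them more than 2-fold, with a median of -2.95. Squalene epoxidase (Sqle), an enzyme of cholesterol synthesis, read 414, 390.1, 450.4 and 478 CPM in astrocytes and 30.4, 39.3, 46.000 and 50.4 CPM in ECs (-3.46 ± 0.13, adjusted p = 1.0e-06). Srebf2, the factor that drives this set, differed less (-1.72 ± 0.10). Ebp, a sterol isomerase, was alone in the other direction, at 23.4, 27.1, 27.03 and 29.3 CPM in ECs and 9.896, 9.62, 11.9 and 10.98 CPM in astrocytes (1.27 ± 0.10, adjusted p = 3.7e-05). Of 10 mitochondrially encoded genes tested, 7 were higher in astrocytes and 3 were not called, with a median of -0.80. mt-Co1 read 12978, 16484, 14411 and 15128 CPM in astrocytes and 7695, 11129, 7631 and 8564 CPM in ECs (-0.82 ± 0.16, adjusted p = 0.0026). Of the 13 protein-coding mitochondrial genes, 6 were listed at or below 1.59 CPM in every library of both cell types, mt-Co2 and mt-Co3 among them. Some of these low genes were among the 10 tested, so the count and the median rest in part on levels near the floor.

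Secreted signals of the vessels and their receptors were found in both cells. Of 26 tested vascular ligands, 13 were higher in ECs and 12 in astrocytes, with a median of 0.26, an even split like that over all genes (38.7% and 38.3% of those tested), and of 31 tested receptors 22 were higher in ECs and 6 in astrocytes, with a median of 2.64. Vegfa, the main growth factor of vessels, read 642, 684, 459 and 452 CPM in astrocytes and 17.1, 14.5, 16.7 and 11.6 CPM in ECs (-5.27 ± 0.15, adjusted p = 5.4e-07). Its receptor Kdr read 2603, 2191, 2639 and 2770.2 CPM in ECs and 2.61, 5.504, 2.27 and 2.66 CPM in astrocytes (9.60 ± 0.34, adjusted p = 9.0e-07). Flt4, the receptor of Vegfc, was also endothelial (10.25 ± 0.24), and here the ligand was too, with 46.1, 61.3, 38.1 and 29.3 CPM in ECs and 6.65, 6.43, 5.45 and 5.16 CPM in astrocytes (2.78 ± 0.14, adjusted p = 4.3e-06). Pgf, another ligand of Flt1, read 3.47 to 5.69 CPM in ECs and 5.32 to 8.02 CPM in astrocytes, ranges that overlap (-0.69 ± 0.26, adjusted p = 0.046, and 0.053 to 0.16 without animal 9, 19 or 22).

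Of the angiopoietin ligands, Angpt1 was higher in astrocytes, and Angpt2 was higher in ECs like the receptor. Angpt1, the agonist of Tek, read 45.5, 29.8, 46.3 and 50.6 CPM in astrocytes and 5.502, 3.83, 3.78 and 3.32 CPM in ECs (-3.43 ± 0.19, adjusted p = 5.6e-06). Angpt2, the context-dependent antagonist, read 142, 140.2, 125 and 121 CPM in ECs and 7.34, 6.08, 3.18 and 1.48 CPM in astrocytes (4.93 ± 0.32, adjusted p = 1.3e-05). Tek itself was endothelial, at 877, 945, 886 and 856 CPM in ECs and 0.745, 1.56, 0.908 and 0.817 CPM in astrocytes (9.75 ± 0.19, adjusted p = 2.7e-07). Both groups of 4 were separate for all 3 genes.

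The Wnt and norrin ligands that act on the barrier were astrocytic. Wnt7a read 120.3, 129, 115 and 113 CPM in astrocytes and 1.58, 1.82, 3.47 and 3.06 CPM in ECs (-5.69 ± 0.23, adjusted p = 1.6e-06), Wnt7b 143, 138, 136 and 135 CPM in astrocytes and 2.44, 3.25, 4.71 and 3.37 CPM in ECs (-5.41 ± 0.18, adjusted p = 7.2e-07), and norrin (Ndp) 75.6, 82.1, 65.7 and 62.4 CPM in astrocytes and 1.77, 1.48, 1.92 and 1.66 CPM in ECs (-5.44 ± 0.13, adjusted p = 3.8e-07). The reception side was less exclusive. The coreceptor Adgra2 (Gpr124) was strongly endothelial, at 510.1, 457, 485 and 440.0 CPM against 19.5, 19.3, 13.3 and 8.33 CPM (4.97 ± 0.22, adjusted p = 2.0e-06), but its partner Reck, the norrin receptor Fzd4 and the coreceptor Lrp5 differed by 0.89, 2.06 and 1.605. Lrp6 read 124 to 144 CPM in ECs and 103 to 139 CPM in astrocytes and was not called (0.16 ± 0.10, adjusted p = 0.17), and Tspan12, the norrin coreceptor, was slightly higher in astrocytes (-0.37 ± 0.09, adjusted p = 0.0082).

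Ligands made by ECs formed the other direction. Pdgfb, which recruits pericytes, read 552, 331, 444 and 419.6 CPM in ECs and 1.703, 2.14, 1.702 and 1.58 CPM in astrocytes (7.86 ± 0.19, adjusted p = 3.8e-07). The Notch ligands Dll4 and Jag2 were endothelial (6.62 ± 0.13 and 6.40 ± 0.19), Notch4 likewise (5.25 ± 0.10), while Notch2 was astrocytic (-2.74 ± 0.12) and Notch1 was not called (0.14 ± 0.17, adjusted p = 0.47). Endothelin 1 (Edn1) read 143, 167, 90.1 and 97.2 CPM in ECs and 0.213, 0.29, 0 and 0 CPM in astrocytes (9.87 ± 0.32, adjusted p = 6.9e-07), and its receptor Ednrb 2009, 1666, 2050.5 and 1921 CPM in astrocytes and 49.6, 36.1, 66.5 and 57.4 CPM in ECs (-5.28 ± 0.15, adjusted p = 5.1e-07). Here the ligand was endothelial and the receptor astrocytic, the reverse of Vegfa and Kdr. Apelin (Apln) was present in both, at 710.0, 429.7, 497 and 534 CPM in ECs and 234, 265, 170.1 and 154 CPM in astrocytes (1.35 ± 0.18, adjusted p = 4.1e-04), and its receptor Aplnr was endothelial, at 445, 280.0, 510.4 and 559 CPM in ECs and 0.266, 0.174, 0.17 and 0.255 CPM in astrocytes (10.90 ± 0.16, adjusted p = 2.7e-07). Cxcl12 and its receptors Cxcr4 and Ackr3 were all higher in ECs (5.24 ± 0.17, 2.20 ± 0.08 and 3.05 ± 0.12). Of the TGF-beta ligands Tgfb1 was endothelial (5.07 ± 0.14) and Tgfb2 slightly higher in astrocytes (-0.53 ± 0.10, adjusted p = 0.0021), with the receptors Tgfbr2, Eng and Acvrl1 higher in ECs by 5.03, 7.76 and 8.65.

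**Figure D4:**
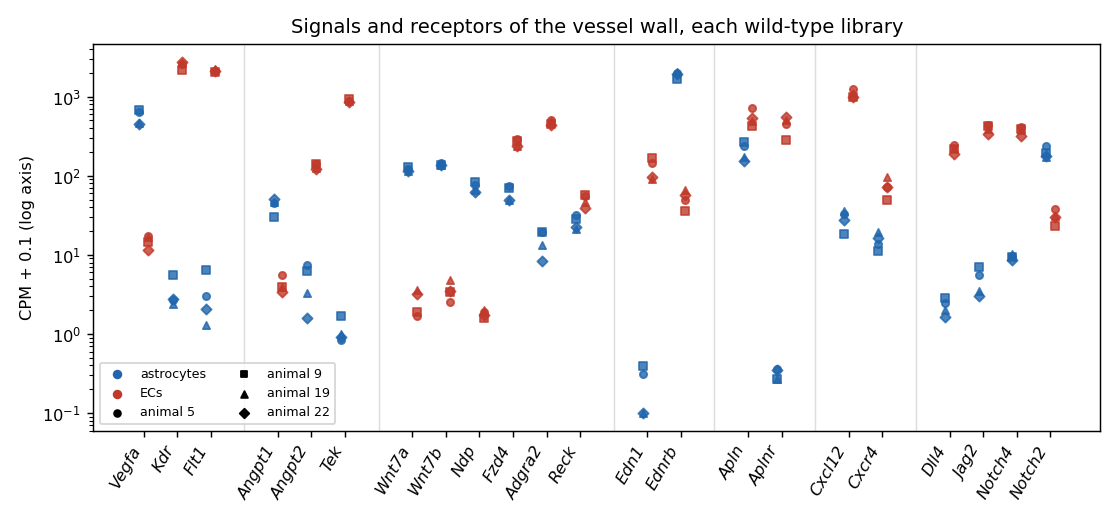
CPM (log axis) of ligands and of their receptors in each of the 8 libraries, with blue points for astrocytes, red for ECs and a marker shape for each animal. Vegfa, Wnt7a and Wnt7b are higher in astrocytes and Kdr and Tek in ECs, while Edn1 is higher in ECs and Ednrb in astrocytes.

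Basement membrane genes were mostly endothelial, 16 of 20 tested with integrins against 4 in astrocytes, with a median of 3.25. The type IV collagen chain Col4a1 read 4249, 3925, 4303 and 4145 CPM in ECs and 293, 426, 170.3 and 130.1 CPM in astrocytes (4.12 ± 0.33, adjusted p = 3.3e-05). Fibronectin (Fn1) read 5801, 5517, 5774 and 5262 CPM in ECs and 61.1, 36.96, 37.2 and 24.7 CPM in astrocytes (7.14 ± 0.26, adjusted p = 1.0e-06), and laminin alpha 4 (Lama4), the endothelial laminin chain, 924, 758, 989.7 and 971 CPM in ECs and 29.8, 48.5, 32.6 and 33.3 CPM in astrocytes (4.62 ± 0.20, adjusted p = 2.0e-06). Laminin alpha 2 (Lama2), the chain of the outer, parenchymal membrane, was higher in astrocytes, at 149, 149, 109.6 and 111 CPM against 64.4, 39.9, 54.1 and 48.3 CPM (-1.39 ± 0.14, adjusted p = 1.2e-04). So were the integrins Itgb8, Itgav and Itgb5 (-5.12 ± 0.18, -2.72 ± 0.17 and -2.95 ± 0.11), of which the first pair form the astrocyte receptor that activates TGF-beta. Astrocyte levels of Col4a1 were higher in animals 5 and 9, whose astrocyte libraries also held more pericyte markers (summed 1050.1 and 1609 CPM) than those of 19 and 22 (742 and 574 CPM). The part of pericytes in the Col4a1 level was not tested.

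Of 15 genes of vessel segments and tip cells, 14 were higher in ECs and Rgcc was not called (0.00 ± 0.13, adjusted p = 0.98), with a median of 5.49. Capillary, venous and arterial genes were all found in the EC libraries. Car4, of capillaries, read 916, 918, 669.6 and 468 CPM in ECs and 2.29, 6.02, 1.02 and 1.48 CPM in astrocytes (8.20 ± 0.35, adjusted p = 1.9e-06). The arterial gene Gkn3 read 22.6, 57.7, 6.82 and 3.21 CPM in ECs, highest in animal 9 and lowest in animal 22. Sema3g, a semaphorin of arterial ECs, was steadier, at 213, 243, 179 and 146 CPM (9.79 ± 0.15). Over all genes tested, 38.7% were higher in ECs and 38.3% in astrocytes. Of 11 genes of leukocyte docking, 8 were higher in ECs and 3 in astrocytes, with a median of 6.34. Vcam1 was one of these 3, with 907, 838, 975 and 935 CPM in astrocytes and 52.9, 101, 105 and 218 CPM in ECs (-3.17 ± 0.32, adjusted p = 1.0e-04), whereas Icam1 was endothelial, at 148, 446, 167 and 252 against 1.76, 1.796, 2.04 and 2.503 CPM (6.79 ± 0.29, adjusted p = 1.9e-06). The chemokine-binding protein of venules Ackr1 read 5.65, 12.2, 50.4 and 139 CPM in ECs (3.88 ± 0.60, adjusted p = 9.0e-04) and P-selectin (Selp) 0.67, 4.45, 4.22 and 19.2 CPM (6.34 ± 0.56, adjusted p = 5.5e-05). Both were highest in animal 22 and lowest in animal 5.

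Genes of the interferon response and antigen presentation were endothelial, 19 of 20 tested, with a median of 3.24, and Ifit3 was not called (-0.13 ± 0.27, adjusted p = 0.67). They also varied between animals. B2m, the light chain of class I molecules, read 235, 369, 836 and 1953 CPM in ECs and 48.9, 44.6, 61.9 and 82.03 CPM in astrocytes (3.36 ± 0.38, adjusted p = 1.9e-04), H2-K1 137, 241, 695 and 1832 CPM in ECs and 52.6, 63.3, 67.3 and 107 CPM in astrocytes (2.64 ± 0.47, adjusted p = 0.0018), and Nlrc5, the class I transactivator, 0.431, 1.196, 28.5 and 59.6 CPM in ECs and 0.638, 1.04, 0.511 and 2.76 CPM in astrocytes (3.29 ± 1.03, adjusted p = 0.023). Nlrc5 was not called without animal 19 or 22 (adjusted p = 0.12 and 0.19) or by DESeq2 (adjusted p = 0.057). The ECs of animals 19 and 22 were the high ones for all 3, and for Nlrc5 the ECs of animal 9 lay within the astrocyte range and those of animal 5 below it. Summed over 9 class I genes chosen after their values were seen, ECs held 851, 1222, 2701 and 6154 CPM. The median of the whole list was 2.61 in animals 5 and 9 and 3.89 in animals 19 and 22, and 2.77 without animal 22. Ly6a and Ly6c1, which many brain ECs carry as surface antigens, spread less, with 264, 416, 329.5 and 596 CPM and 727, 981, 613 and 740.2 CPM in ECs.

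Markers of microglia and macrophages also varied between the EC libraries. All 10 that were tested were higher in ECs, and the sum over the 11 on the list was 98.8, 255, 235 and 402 CPM in ECs and 24.1 to 32.5 CPM in astrocytes. The border macrophage receptor Mrc1 read 13.1, 45.2, 47.1 and 79.997 CPM in ECs and the microglial gene Tmem119 3.73, 7.08, 3.22 and 4.096 CPM. No marker of the list was at 0 in an EC library. In the 4 mutant EC libraries, from other animals, the same 9 class I genes summed to 1011 and 1045 CPM in animals 2 and 13 and to 4956 and 2617 CPM in animals 18 and 21, and the macrophage and microglia markers to 96.8 and 90.4 CPM and to 326 and 304 CPM. In both genotypes the animals with higher class I levels were those without Y-linked transcripts (Ddx3y, Eif2s3y, Kdm5d and Uty below 1 CPM in sum), and they also had the higher animal numbers. Sex and anything else that went with the numbering cannot be told apart, and the part of macrophages in the class I levels was not tested.

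**Figure D5:**
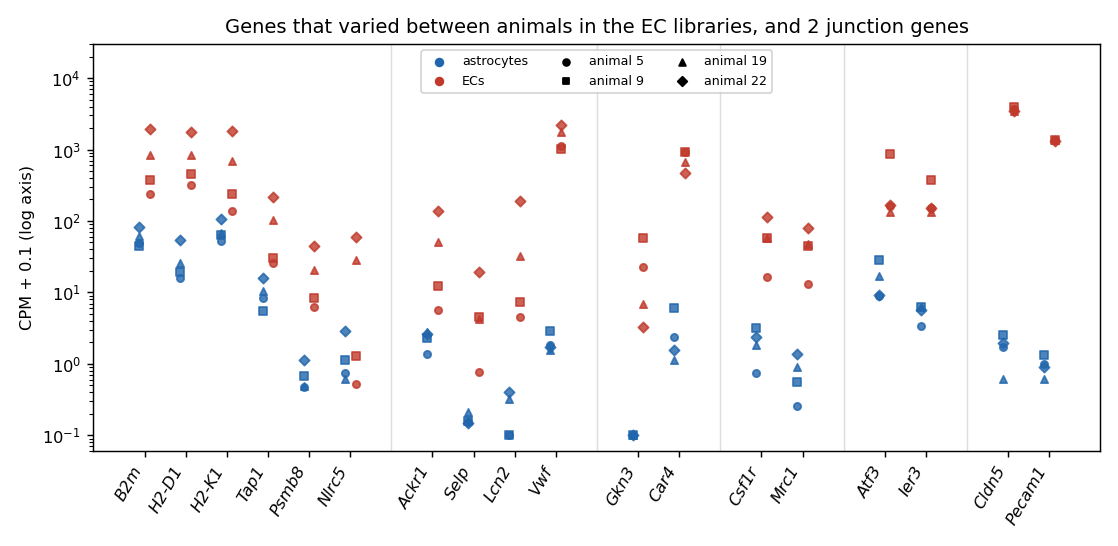
CPM plus 0.1 (log axis) of class I, venous, arterial, capillary, macrophage and immediate early genes and of 2 junction genes in the 8 libraries, with marker shapes for animals. Class I genes and Ackr1 are highest in animal 22 and lowest in animal 5 in ECs (B2m 1953 and 235 CPM), Gkn3 is highest in animal 9, and Cldn5 and Pecam1 barely differ between animals.

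Claudins, connexins and SOX genes each had members on both sides, as genes tested did in general (38.7% higher in ECs and 38.3% in astrocytes). Among the 8 claudins tested, Cldn5 was endothelial and Cldn10 astrocytic, at 279, 270.3, 312 and 292 CPM in astrocytes and 6.12, 8.13, 9.05 and 7.41 CPM in ECs (-5.30 ± 0.12, adjusted p = 3.6e-07). Cldn19 was lower in level and also astrocytic (-3.80 ± 0.29), and Cldn11, the claudin of myelin, followed the oligodendrocyte markers. Among connexins, Gja1 (connexin 43) read 3059.9, 2839.6, 2495 and 2395 CPM in astrocytes and 237, 173, 248 and 191 CPM in ECs (-3.73 ± 0.15, adjusted p = 1.6e-06), Gjb6 (connexin 30) was astrocytic (-5.19 ± 0.18), and Gja4 (connexin 37), Gja5 (connexin 40) and Gjc1 (connexin 45) were endothelial (4.34 ± 0.48, 4.75 ± 0.25 and 2.71 ± 0.14). Of 9 connexins tested, 3 were higher in each cell type and 3 were not called. Of 15 SOX genes, 5 were higher in ECs and 9 in astrocytes. Sox17, a factor of arterial identity, read 307, 321, 272 and 272 CPM in ECs and 0.266, 0.232, 0.113 and 0.0511 CPM in astrocytes (10.69 ± 0.21, adjusted p = 2.7e-07), with Sox18 and Sox7 of the same subgroup at 10.10 ± 0.41 and 4.07 ± 0.24. Sox1, Sox2 and Sox21 were higher in astrocytes by -5.39, -5.08 and -4.92, and Sox10, of oligodendrocyte lineage, was not called (-0.11 ± 0.26, adjusted p = 0.7).

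Hmgb1, the gene flanked by loxP sites in all animals, was higher in ECs of wild types. It read 177, 185, 196 and 209 CPM in ECs and 88.1, 89.2, 127 and 118 CPM in astrocytes (0.82 ± 0.10, adjusted p = 2.7e-04), with no overlap. Hmgb2 differed more (1.43 ± 0.15, adjusted p = 1.4e-04) and Hmgb3 was not called (0.17 ± 0.12, adjusted p = 0.22). Of its receptors, Ager read 3.37 to 6.03 CPM in ECs and 3.46 to 4.44 CPM in astrocytes (0.20 ± 0.23, adjusted p = 0.46), and Tlr4 was higher in ECs, at 11.6, 10.3, 12.8 and 16.1 against 3.19, 3.24, 2.099 and 2.66 CPM (2.12 ± 0.21, adjusted p = 1.1e-04). Tlr2, also a macrophage gene, read 4.45, 5.07, 7.997 and 13.5 CPM in ECs (4.38 ± 0.39), highest in animal 22 like the macrophage markers. Among the genes the study singled out in mutant astrocytes, Slit1, Camk1g and Ptger4 were higher in wild-type astrocytes (-3.81 ± 0.33, -3.20 ± 0.41 and -2.13 ± 0.62, the last not called without animal 9, adjusted p = 0.060) and Lurap1l and Arhgef28 in wild-type ECs (4.15 ± 0.19 and 2.56 ± 0.12), while Teddm2 was not called (0.74 ± 0.29, adjusted p = 0.052), although it was called in ECs without the block (0.76, adjusted p = 0.019), with the length and GC offset (0.80, adjusted p = 0.039) and without animal 5 (0.96, adjusted p = 0.034). All but Lurap1l and Arhgef28 were below 15 CPM in both cell types.

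Thyroid hormone handling was divided between the cells. Dio2, which turns the prohormone T4 into active T3, read 1331, 1066, 1066 and 1049 CPM in astrocytes and 27.5, 19.2, 47.9 and 36.6 CPM in ECs (-5.23 ± 0.27, adjusted p = 4.0e-06). Thrb, a hormone receptor, was astrocytic (-4.28 ± 0.22), and its partner Rxra was higher in ECs (1.14 ± 0.09). Of 9 tested genes, 6 were higher in astrocytes and 2 in ECs, with a median of -1.51. The shares over all genes tested were 38.3% and 38.7%.

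Cell cycle genes were higher in ECs, 18 of 20 tested, with a median of 1.35. Mki67, a marker of cycling cells, read 113, 126, 168 and 228 CPM in ECs and 36.1, 45.9, 75.7 and 82.2 CPM in astrocytes (1.37 ± 0.10, adjusted p = 1.9e-05), and Mcm6, a subunit of the replicative helicase, 112, 108, 155 and 158 CPM in ECs and 22.6, 26.2, 35.9 and 42.4 CPM in astrocytes (2.03 ± 0.09, adjusted p = 2.4e-06). In both cell types the libraries of animals 19 and 22 were above those of 5 and 9. Rrm2 and Mcm4 were not called (-0.26 ± 0.17 and 0.04 ± 0.08, adjusted p = 0.2 and 0.67), though Rrm2 passed as higher in astrocytes without animal 9 (-0.43, adjusted p = 0.047). Immediate early and stress genes, which enzymatic dissociation can induce, were higher in ECs in 14 of 17 cases, with a median of 2.10, but Fos, Egr1 and Socs3 were not called. Ier3 read 152, 376, 132 and 154 CPM in ECs and 3.25, 6.14, 6.13 and 5.67 CPM in astrocytes (5.10 ± 0.28, adjusted p = 5.6e-06), and Atf3 159.6, 878, 134 and 166 CPM in ECs and 8.83, 28.04, 16.9 and 8.99 CPM in astrocytes (4.04 ± 0.33, adjusted p = 3.6e-05). The ECs of animal 9 were the highest of the 8 libraries for both. Without animal 9 the median of the list was 1.90. ECs and astrocytes were captured one after the other, and the order of capture and the cell type cannot be told apart.

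Transcripts of further cell types were present in both sets of libraries. The counts of their markers stand against 38.7% of all genes tested higher in ECs and 38.3% higher in astrocytes. Pericyte and smooth muscle markers summed to 2578 to 3743 CPM in ECs and 574 to 1609 CPM in astrocytes. Of the 12 tested, 7 were higher in ECs, Notch3 and Acta2 were higher in astrocytes (-1.003 and -0.71) and 3 were not called. Acta2, the actin of smooth muscle, lost its call without the block (adjusted p = 0.20) and without animal 5, 9 or 19 (adjusted p = 0.051, 0.090 and 0.098). Rgs5, a regulator of G protein signals in pericytes, read 2105, 1801, 1406 and 1388 CPM in ECs and 258, 649, 107 and 79.2 CPM in astrocytes (3.05 ± 0.44, adjusted p = 6.5e-04). Of 7 oligodendrocyte precursor markers, 4 were higher in astrocytes, all more than 2-fold, and 3 were not called. They summed to 2177 to 2482 CPM in astrocytes and 87.7 to 191 CPM in ECs, and most of the sum was Cspg5, a proteoglycan gene that astrocytes also express, at 2081, 1900.5, 2320.1 and 2391 CPM in astrocytes and 46.9, 44.6, 74.6 and 55.8 CPM in ECs (-5.37 ± 0.15, adjusted p = 5.0e-07). Oligodendrocyte markers varied between animals as well as between cell types. Among the 10 tested, 7 were higher in ECs, 1 (Cnp) was higher in astrocytes (-1.49 ± 0.30) and 2 were not called. Mbp was called with the animal as a block (2.21 ± 0.33, adjusted p = 8.1e-04) and not without it (1.65, adjusted p = 0.11), while Mal read 128, 237, 149 and 109.7 CPM in ECs and 7.82, 68.7, 8.17 and 7.25 CPM in astrocytes (3.39 ± 0.42, adjusted p = 3.2e-04). Ttr, of the choroid plexus, read 5007, 239, 2.42 and 2.07 CPM in ECs and 1355, 58.4, 1.93 and 0.971 CPM in astrocytes, high in both libraries of animal 5. It was called with the block (1.53 ± 0.28, adjusted p = 0.002) and not without it (1.81, adjusted p = 0.51).

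Of 9 ependyma and choroid plexus markers, 5 were higher in astrocytes, 1 (Ttr) was higher in ECs and 3 were not called. For this list and those that follow, the shares over all genes tested were 38.3% higher in astrocytes and 38.7% in ECs. Foxj1, the master factor of motile cilia, read 92.05, 105, 97.5 and 62.7 CPM in astrocytes and 10.2, 8.95, 3.16 and 4.67 CPM in ECs (-3.84 ± 0.27, adjusted p = 1.9e-05). Of 9 fibroblast and meningeal markers, 7 were higher in astrocytes, 0 were higher in ECs and 2 were not called, with a median of -0.997. They summed to 656, 384, 711 and 449 CPM in astrocytes and 540.1, 217, 272 and 148 CPM in ECs, higher in the astrocytes of each animal. Of 10 tested neuron markers, 5 were higher in astrocytes, 1 was higher in ECs and 4 were not called, and those on the list summed to 48.7 to 190.4 CPM in astrocytes and 55.3 to 70.4 CPM in ECs. Snap25, a synaptic vesicle fusion protein, read 1.86, 2.78, 11.005 and 15.5 CPM in astrocytes and 1.91, 2.01, 1.49 and 1.24 CPM in ECs (-1.83 ± 0.66, adjusted p = 0.04), with the astrocytes of animals 19 and 22 high, and it was not called without either of them (adjusted p = 0.14 and 0.13). Of 6 erythroid genes, the globin genes Hbb-bs and Hbb-bt were higher in ECs (0.37 ± 0.14 and 0.30 ± 0.10, adjusted p = 0.041 and 0.026), calls that were lost without the block (adjusted p = 0.33 and 0.55), without animal 5 (0.19 and 0.13) and without animal 22 (0.11 and 0.094), and 4 were not called, Hba-a1 among them (0.20 ± 0.13, adjusted p = 0.2). Their sum was 852, 1165, 1603 and 1349 CPM in ECs and 493, 1129, 1403 and 988 CPM in astrocytes, higher in the ECs of each animal. Globin genes are near copies of each other, so reads may be divided between them.

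Some abundant genes did not separate the cells. Of protein-coding genes that were not called and lay within 0.2 of 0 on the log2 scale, the most abundant were Aplp2, Hnrnpa2b1, Hspa5, Fos and Calr. Aplp2, a relative of the amyloid precursor protein, read 1072, 971, 1051 and 1049 CPM in ECs and 1016, 942, 1005 and 1053 CPM in astrocytes (-0.01 ± 0.10, adjusted p = 0.91). The endoplasmic reticulum chaperones Hspa5 and Calr read 746 to 1234 and 712 to 813 CPM in ECs and 682 to 955 and 692 to 763 CPM in astrocytes (0.13 ± 0.11 and 0.02 ± 0.09). For all 5 the ranges of the groups overlapped.

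The difference between cell types was of nearly the same form in mutants, which are other animals. There, 12796 of 16508 genes (77.5%) were called between ECs and astrocytes, and 7994 (48.4%) were called and more than 2-fold different. Of 16105 genes tested in both genotypes, 11715 were called in the same direction in both, which is 94.4% of the wild-type calls and 93.5% of the mutant calls, and 1 was called in opposite directions. The median absolute difference between the log2 fold changes was 0.13, and for 447 genes the difference was more than 1. A test of the difference itself, cell type by genotype over all 16 libraries, called 3 of 17493 genes (0.0171%), with 535 at an unadjusted p under 0.05 and 5 called by DESeq2. So few calls do not show that the other genes were alike in the genotypes.

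The 3 genes were Esr1, Hmgb1 and Cdkn1a. Hmgb1 read 32.4, 39.0, 42.0 and 50.6 CPM in mutant astrocytes (animals 2, 13, 18 and 21) and 175, 194, 189 and 188 CPM in mutant ECs, so that the cell type difference went from 0.82 in wild types to 2.12 in mutants (difference 1.32 ± 0.15, adjusted p = 0.029). The mutant ECs lay within the range of the wild-type ECs or just below it. Esr1, the estrogen receptor alpha, read 6.96, 5.91, 10.2 and 5.66 CPM in mutant astrocytes and at most 0.266 CPM in wild-type astrocytes, and the cell type difference turned from 3.65 to -2.17 (difference -5.81 ± 0.48, adjusted p = 0.0049). The mutants carry the Cre/ERT2 transgene under an astrocyte promoter and the wild types do not. Whether reads of the transgene were counted as Esr1 was not tested. Cdkn1a, the cell cycle inhibitor p21, read 9.55 to 15.1 CPM in mutant and 5.59 to 6.86 CPM in wild-type astrocytes, and the difference went from 4.55 to 3.48 (difference -1.06 ± 0.12, adjusted p = 0.029). Esr1 was called in each of the 8 fits that left out 1 animal. Hmgb1 was called only without animal 21 and had an adjusted p of 0.052 to 0.17 without any of the others, and Cdkn1a was called in none of them (0.098 to 0.17) nor without the block (0.52).

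Between the wild-type animals with Y-linked transcripts (5 and 9) and those without (19 and 22), the cell type difference was called for 2 of 16336 genes (0.0122%), with 3810 at an unadjusted p under 0.05. The unadjusted count was larger than in the test of genotype (535 of 17493 genes). With 2 animals on each side, the 2 calls do not show that the other genes were alike. Ptgds, a prostaglandin synthase of the meninges, was lower in ECs by 0.95 in animals 5 and 9 and by 4.39 in animals 19 and 22 on the log2 scale (adjusted p = 0.015). Bc1, a neuronal noncoding RNA, went from 2.12 in the first pair to -1.15 in the other (adjusted p = 0.015), with 4.31, 13.5, 74.4 and 20.5 CPM in astrocytes and 19.7, 59.0, 30.1 and 11.8 CPM in ECs. Without the animal as a block this test called 0 genes.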

How the data were processed

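RNA was sequenced from bead-purified cortical ECs and astrocytes of 4 wild-type and 4 mutant mice. The authors aligned trimmed reads to GRCm39 and counted reads per gene with STAR 2.7.9a, and deposited raw counts. Annotation release and strand setting are not given in the sources used here, and 181 of the 254 genes named by rule overlap another gene, so reads may be shared between them. Of 56980 identifiers, 98.7% matched GENCODE vM39.

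Counts were filtered with filterByExpr and tested with edgeR 4.0.16 (R 4.3.3; TMM factors, quasi-likelihood F-test, animal as block, Benjamini-Hochberg adjustment, threshold 0.05). Only the 8 wild-type libraries entered the comparison of cell types, and all 16 entered the test of genotype. CPM were computed from the deposited counts. Scripts were tested on simulated data. Alternatives used DESeq2 1.42.0, limma 3.58.1, RLE factors, other filters, a length and GC offset, no block and left-out animals. The pairing comes from the shared animal. Deviations of EC and astrocyte libraries of an animal correlated at -0.002 to 0.374, and those of different animals at -0.236 to 0.076 over 9205 genes. No libraries of a group were identical or agreed within counting noise.

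Gene lists and rules were chosen with earlier results of these data known. The rule named the 10 largest changes in each direction among called protein-coding genes of at least 10 CPM without overlap, the 10 most abundant per kb of these above a log2 value of 2, the 4 members of smallest p in each list and called members over 2-fold against the majority, Hmgb1 to Hmgb3 and genes the study names, the 5 smallest p of the genotype term, the 5 most abundant genes not called within 0.2 of 0, and claudins, connexins, SOX genes, ligands and receptors called over 2-fold. Not all are described, some are withheld and not reported here, and other list members were named after their values were seen. Floors are 3 reads over the libraries of a group.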

Additional observations from a re-analysis of the deposited data

Results flagged for a closer look

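In 244 groups of 4 libraries (the ECs or the astrocytes, for each gene given with its level in every library and for each marker sum), 1 library stood apart by Dixon's test in 14 (5.74%). By chance the test marks about 1 group in 20. Some of the genes were named after their values were seen, so the share cannot be compared with that rate. Of these 14 libraries, 7 were of animal 9 and 6 of animal 5. In astrocytes, animal 9 stood apart for Erg (0.695 CPM), Kdr (5.50 CPM), Sema3g (0.348 CPM), Mal (68.7 CPM) and the summed oligodendrocyte markers (2935 CPM), each the highest of the 4 libraries. In ECs, animal 9 was highest for Ier3 (376 CPM) and Atf3 (878 CPM). Animal 5 was highest for Ttr (5007 CPM in ECs and 1355 CPM in astrocytes), for the summed ependyma and choroid plexus markers (5171 and 1635 CPM) and for Dio2 in astrocytes (1331 CPM), and lowest for Ier3 in astrocytes (3.25 CPM). Selp was highest in the astrocytes of animal 19 (0.113 CPM, which is 2 reads). Without animal 9 the cell type difference was 4.80 for Ier3 and 3.96 for Mal, and without animal 5 it was 1.40 for Ttr. All 3 were still called.

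The difference between cell types differed between genotypes for Esr1 (-5.81), Hmgb1 (1.32) and Cdkn1a (-1.06), and between the wild-type animals with and without Y-linked transcripts for Ptgds (3.43) and Bc1 (3.25), all as differences of log2 fold changes that passed the test of the difference itself.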

How the results depend on the processing

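The count of 12582 called genes stayed between 11686 and 14421 under the other tests, normalizations, filters and left-out animals tried, except in the test against a 2-fold change, which called 6735 (3023 higher in ECs and 3712 in astrocytes). Without the animal as a replicate block, 12486 genes were called. Of the 254 genes named by rule, that fit lost the calls of Cgn, Cldn11, Col1a1, Col1a2, Mbp, Mobp, Ttr, Hbb-bt, Hbb-bs, Eif2s3y and Ddx3y and gained that of Teddm2. An offset for gene length and GC content gave 7028 genes higher in ECs and 5821 in astrocytes, against 6318 and 6264. With it, among genes whose fold change is given, Nfib, Slc38a3 and Snap25 lost their calls, and Lrp6 (0.51), Notch1 (0.60) and Teddm2 (0.80) gained one in ECs. The alternatives called 84% to 99.9% of the 8019 genes called and more than 2-fold different in the same direction and past that fold, and 0 in the opposite one. The difference between genotypes was called for 3 genes, for 5 with DESeq2 and for 1 to 2 with 1 animal left out, and that between animals with and without Y-linked transcripts for 2 genes and, without the block, for 0. For the 254 genes, 3721 of 3797 values kept direction and call. In 10 the sign changed, in 0 of them for a gene more than 2-fold different. With the length and GC offset these were Hba-a1 (-0.0356), Kdm5d (0.25), Aplp2 (0.0614) and Hnrnpa2b1 (0.11). In the animals without Y-linked transcripts they were Hmgb3 (-0.0192) and Fos (-0.26), and in those with them Aplp2 (0.0172). With 1 animal left out the values ran from -0.0360 to 0.0132 for Aplp2, from -0.0512 to 0.288 for Fos and from -0.0045 to 0.0455 for Calr. Of 555 list medians under the alternatives, 25 moved by more than their spread and 5 changed sign. The cause was not tested. Genes with few reads have wide counting intervals, and intervals and floors cover counting error only.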
